A study of Mus musculus with 3 samples.

Results

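The enzymes that build purine, pyrimidine and deoxynucleotide precursors were followed in NIH3T3 cells overexpressing mutant YAP (mtYAP) or wild-type YAP (YAP), set against control NIH3T3 cells. The set holds 31 listed genes, and a gene counted as measured where at least 1 probe set of the array names it and no other gene. By this rule 30 of the 31 genes were measured, out of 18193 measured genes, through 70 of 45037 probe sets. Impdh2, an isoform of IMP dehydrogenase, has no probe set that names it alone and was not analysed here. The genes were listed by their known function, with earlier results of these data in view.

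Purine nucleotides are assembled step by step on PRPP, an activated ribose phosphate, until IMP is reached, from which AMP and GMP are made. The pyrimidine ring is built first and joined to PRPP afterwards, which gives UMP and from it UTP and CTP. Ribonucleotide reductase converts ribonucleotides to deoxynucleotides, dUTPase and thymidylate synthase lead to dTMP, and salvage enzymes recover bases and nucleosides that the cell has already made or taken up. Dividing cells draw on these routes for DNA and RNA synthesis, and several of the enzymes are known to be made mainly around S phase.

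RNA of each condition was hybridized to 1 Affymetrix GeneChip Mouse Genome 430 2.0 array, 3 arrays in all. The mtYAP cells carried Yap S112A, in which the serine at position 112 is alanine, the YAP cells carried wildtype Yap, and the control cells are labelled as untransduced. All are NIH3T3 cells, an immortalized line of fibroblasts from NIH/Swiss mouse embryos, grown with 10% calf serum. Both overexpressing lines were made with retroviral vectors and selected with puromycin. The methods also describe cells infected with an empty vector and selected alike, without saying which control was hybridized, and if the control was untransduced as labelled, overexpression and selection cannot be told apart. A free-text field of the control names an embryonic stem cell experiment, and although the arrays addressed growth at confluence, no source used here states the density of the cultures they were made from.

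The values are log2 expression levels, so a difference of 1 between arrays is 2-fold. With 1 array per condition no value has an error and no difference has a test, and the comparisons of mtYAP and of YAP with control share the same control array. The array medians lay between 4.56 and 4.60, and between 33.0% and 34.0% of the probe sets reached a level of 6, which is taken here as clearly measured. Of 10 fibroblast markers, 9 reached level 6 on every array, and no pluripotent stem cell, epithelial, leukocyte or endothelial marker did, the highest of these standing at 4.96. Yap1 itself read 7.89 in mtYAP, 8.06 in YAP and 8.57 in control. The sources used here do not give which stretch of the mRNA its probe sets cover, so Yap1 does not check the labels.

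Most nucleotide synthesis genes stood higher in both lines than in control. In mtYAP, 27 of the 30 measured genes had a higher level than in control, as did 9418 of all 18193 genes. Of the 30, 9 (30%) had a log2 difference above 1, where 3.77% of all genes did. As means of their probe sets, none of the 30 lay below −1, where 4.06% of all genes did. The 1 probe set of Ctps2 that reached level 6 stood at −1.43. In YAP, 26 of the 30 were higher than in control, as were 8727 of all 18193 genes. Of the 30, 2 (6.67%) lay above 1, against 1.36% of all genes, and none lay below −1, against 1.26%. Among genes that reached level 6 on at least 1 array, 8 of the 26 of the set (30.8%) lay above 1 in mtYAP, against 7.66% of all such genes. In YAP, 2 of these 26 (7.69%) did, against 2.72% of all such genes. The median log2 difference over the 30 genes was 0.80 in mtYAP and 0.43 in YAP, where the medians over all genes were 0.02 and −0.00. These RNAs come from whole cultures, so a higher share of cells in a given cycle phase and more RNA per cell cannot be told apart.

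As means of their probe sets, 26 of the 30 genes reached a level of 6 on at least 1 array. The means of Gart, Cad, Dut and Dck did so only in the overexpressing lines and that of Ctps2 only in control. Each of these genes also has a probe set at level 6 or above on every array, such as 7.60 in control for Dut and 8.02 in mtYAP for Ctps2. Tyms, Adssl1, Ppat and Umps stayed below 6 on every array as means of their probe sets. For genes with several probe sets at level 6, the differences from control of those probe sets typically spanned 0.27 in mtYAP and 0.22 in YAP (medians over 3718 genes), against 0.345 and 0.32 over the 16 such genes of this set. Of the 70 probe sets of the set, 62 read higher in mtYAP than in control and 59 higher in YAP than in control. Over all probe sets of the array, the median difference from control was 0 in mtYAP and −0.01 in YAP. For 26 of the 30 genes, every probe set of the gene read higher in mtYAP than in control. However, 10 of the 30 have 1 probe set, so for them this is only the direction of the gene itself. The same count over all genes was not made.

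**Figure D1:**
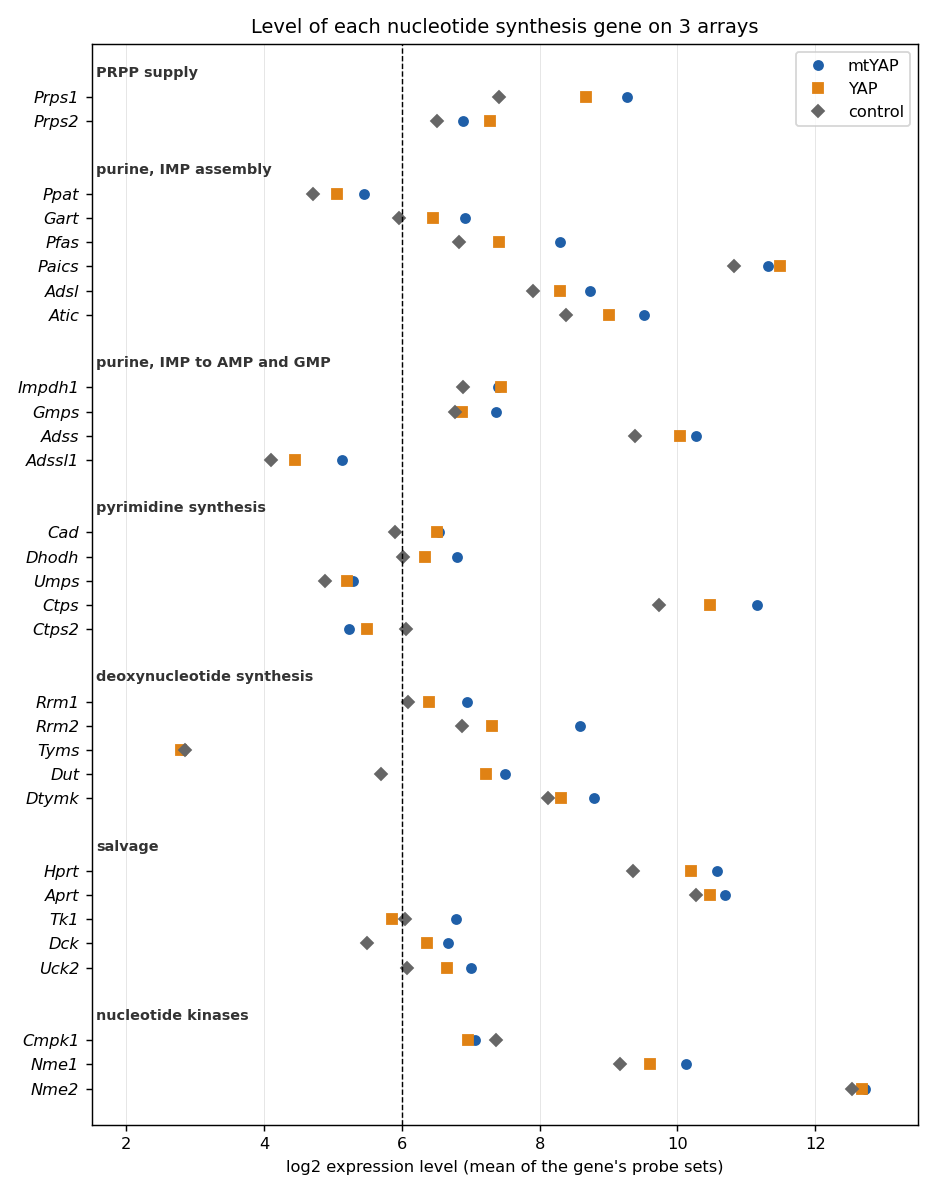
Log2 expression level (horizontal axis) of the 30 measured nucleotide synthesis genes, grouped by branch, on the mtYAP (circles), YAP (squares) and control (diamonds) arrays, 1 point per array and no error bars because there were no replicates. The dashed line marks level 6. For 23 genes the points stand in the order mtYAP, YAP, control from high to low, and Ctps2, Cmpk1 and Tyms are highest in control.

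PRPP synthetases open the pathway, and Prps1 had the highest difference of the set in mtYAP when the probe sets of each gene were averaged. With the brightest probe set of each gene, Dut at 2.38 and Rrm2 at 1.99 stood above Prps1. Prps1, the widely expressed isoform that makes PRPP from ribose 5-phosphate, read 9.27 in mtYAP, 8.67 in YAP and 7.41 in control. That is a log2 difference of 1.86 (3.63-fold) in mtYAP and 1.26 (2.39-fold) in YAP, which placed Prps1 at rank 144 and rank 129 from the top among all genes. Its isoform Prps2 read 6.88 in mtYAP, 7.28 in YAP and 6.51 in control, and the differences from control were 0.37 and 0.77. Prps1 was thus highest in mtYAP and Prps2 highest in YAP, and all 3 probe sets of Prps2 read higher in YAP than in mtYAP, by 0.22 to 0.65. A further probe set names Prps1 together with Prps1l3 and lies outside the rule. It read 8.84 in mtYAP, 8.40 in YAP and 7.43 in control, in the same order as the probe set of Prps1 alone. Of the 2 genes for proteins that bind PRPP synthetases, none lay beyond 1 in either direction in either line.

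The promoter of Prps1 is shown because this gene passed the limit of 1 in both lines and because its window is the only one of the set with the TEAD string. It spans chrX:140456353-140456652 on the plus strand of GRCm38.p6 (RefSeq), 250 bases before to 50 after the start. Capitals mark CCAAT (bound by NF-Y), GGCGGGA in either orientation (bound by E2F factors) and GGAATG (bound by TEAD factors, the partners of YAP on DNA), the last of which overlaps an E2F string here.
Prps1: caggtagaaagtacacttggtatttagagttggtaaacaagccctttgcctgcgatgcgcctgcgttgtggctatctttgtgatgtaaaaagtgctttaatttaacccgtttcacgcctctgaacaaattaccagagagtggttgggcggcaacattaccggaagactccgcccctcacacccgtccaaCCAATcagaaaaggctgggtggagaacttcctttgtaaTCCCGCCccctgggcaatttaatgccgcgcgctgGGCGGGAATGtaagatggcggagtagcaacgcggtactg

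All 6 enzymes that carry PRPP to IMP stood above control in both lines, with median differences of 0.89 (mtYAP) and 0.53 (YAP). Ppat, the amidotransferase of the first committed step, read 5.44 in mtYAP, 5.06 in YAP and 4.71 in control as a mean of 3 probe sets. One of these stayed below 3 on every array, and the 2 that reached level 6 differed from control by 1.14 and 0.99 in mtYAP and by 0.78 and 0.46 in YAP. Gart, which carries 3 activities of the pathway on 1 protein, read 6.92 in mtYAP, 6.45 in YAP and 5.97 in control, and its 4 probe sets differed from control by 0.60 to 1.33 in mtYAP and 0.28 to 0.61 in YAP. Pfas, a glutamine-using synthase of the same branch, read 8.30 in mtYAP, 7.41 in YAP and 6.83 in control. Its difference of 1.47 (2.77-fold) in mtYAP was the highest of the branch, and in YAP it was 0.58 (1.49-fold).

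In the later steps to IMP, Paics had the lowest difference of the branch in mtYAP and, with probe sets averaged, the highest in YAP. The rank in YAP depended on the probe sets. With the brightest probe set of each gene, Paics stood at 0.70 in YAP, below Ppat at 0.78. With the median of the probe sets it stood at 0.39, below Atic at 0.63. Paics, a bifunctional enzyme with carboxylase and SAICAR synthetase activity, read 11.32 in mtYAP, 11.49 in YAP and 10.82 in control. Its difference was 0.50 in mtYAP and 0.67 in YAP, and each of its 3 probe sets read higher in YAP than in mtYAP. Adsl, which acts both here and on the way to AMP, read 8.73 in mtYAP, 8.30 in YAP and 7.91 in control. Atic, which closes the purine ring and so gives IMP, read 9.515 in mtYAP, 9.01 in YAP and 8.38 in control, a difference of 1.135 (2.20-fold) in mtYAP and 0.63 (1.55-fold) in YAP. The 2 probe sets of Atic differed little from each other, at 1.20 and 1.07 in mtYAP and 0.67 and 0.59 in YAP. Ppat and Paics lie next to each other in opposite orientation. As means of all their probe sets they read 0.74 and 0.50 above control in mtYAP and 0.35 and 0.67 in YAP. With probe sets at level 6 alone, Ppat and Paics stood at 1.065 and 0.50 in mtYAP and at 0.62 and 0.67 in YAP.

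The promoter of Atic, at chr1:71556906-71557205 on the plus strand of GRCm38.p6 (RefSeq), is shown because it holds the E-box letters CACGTG, which MYC and MAX bind, beginning 7 bases before the start. Capitals mark the NF-Y, E2F and E-box strings, in this order.
Atic: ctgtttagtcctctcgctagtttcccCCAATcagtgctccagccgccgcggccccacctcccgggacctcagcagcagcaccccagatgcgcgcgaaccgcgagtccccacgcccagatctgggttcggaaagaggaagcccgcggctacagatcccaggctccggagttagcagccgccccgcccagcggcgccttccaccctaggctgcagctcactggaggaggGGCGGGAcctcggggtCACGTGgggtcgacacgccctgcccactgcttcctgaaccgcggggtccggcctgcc

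Between IMP and the finished AMP and GMP, the 4 measured genes stood above control in both lines, with medians of 0.74 (mtYAP) and 0.45 (YAP). Impdh1, an IMP dehydrogenase isoform on the GMP side, read 7.39 in mtYAP, 7.44 in YAP and 6.89 in control. Gmps, the GMP synthetase that follows it, read 7.36 in mtYAP, 6.87 in YAP and 6.77 in control. The 1 of its 3 probe sets above level 6 on every array stood 0.46 above control in YAP. The other 2 read below control in YAP, by 0.15 and 0.01, at levels below 6 in both YAP and control. On the AMP side, Adss, the adenylosuccinate synthetase of most tissues, read 10.27 in mtYAP, 10.04 in YAP and 9.38 in control, a difference of 0.89 and 0.66. Adssl1, its muscle isoform, read 5.13 in mtYAP, 4.45 in YAP and 4.10 in control. The difference of Adssl1 passed 1 in mtYAP, at 1.03, with every level in the range where the array does not measure clearly.

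In pyrimidine synthesis 4 of 5 genes stood above control in both lines, with CTP synthase isoforms at both ends of the differences. Cad, the trifunctional protein of the first pyrimidine steps, read 6.54 in mtYAP, 6.51 in YAP and 5.90 in control. Dhodh, the mitochondrial dihydroorotate dehydrogenase, read 6.795 in mtYAP, 6.33 in YAP and 6.02 in control, with differences from control of 0.775 and 0.31. Umps, which forms UMP, read 5.29 in mtYAP, 5.21 in YAP and 4.89 in control. The 2 probe sets of Umps that reached level 6 stood 0.75 and 0.54 above control in mtYAP and 0.54 and 0.22 above control in YAP. Cad was therefore nearly level between the lines, whereas Dhodh stood higher in mtYAP in both of its probe sets.

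The isoforms that turn UTP into CTP lay on opposite sides of control. Ctps read 11.15 in mtYAP, 10.48 in YAP and 9.74 in control, a difference of 1.41 (2.66-fold) in mtYAP and 0.74 (1.67-fold) in YAP. Ctps2 read 5.24 in mtYAP, 5.49 in YAP and 6.07 in control, the lowest difference of the set at −0.83 in mtYAP and −0.57 in YAP. All 3 probe sets of Ctps2 read below control in both lines. The probe set of Ctps2 that reached level 6 read 8.02 in mtYAP, 9.04 in YAP and 9.45 in control, and its difference in mtYAP of −1.43 lay beyond the limit that the mean did not pass. The difference of Ctps exceeded that of Ctps2 by 2.24 in mtYAP and by 1.31 in YAP.

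Promoter windows of both isoforms are printed to set this pair side by side, on GRCm38.p6 from RefSeq. That of Ctps lies at chr4:120569410-120569709 on the minus strand and is 1 of its 2 windows, neither of which holds a searched string. That of Ctps2 lies at chrX:162901310-162901609 on the plus strand and is 1 of its 3 windows, with GGCGGGA in capitals.
Ctps: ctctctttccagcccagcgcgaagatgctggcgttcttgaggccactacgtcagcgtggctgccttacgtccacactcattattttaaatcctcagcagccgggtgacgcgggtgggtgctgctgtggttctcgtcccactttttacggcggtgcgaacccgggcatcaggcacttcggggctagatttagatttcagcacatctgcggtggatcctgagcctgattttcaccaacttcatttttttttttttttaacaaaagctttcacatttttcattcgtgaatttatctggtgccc
Ctps2: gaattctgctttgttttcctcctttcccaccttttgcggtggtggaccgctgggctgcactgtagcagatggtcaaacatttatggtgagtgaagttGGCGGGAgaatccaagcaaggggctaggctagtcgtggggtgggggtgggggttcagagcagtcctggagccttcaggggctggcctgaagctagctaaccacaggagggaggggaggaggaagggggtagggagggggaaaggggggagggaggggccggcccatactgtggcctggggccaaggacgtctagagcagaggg

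In deoxynucleotide synthesis the reductase subunits and dUTPase stood above control. Rrm2, the small subunit of ribonucleotide reductase, known to be made mainly in S phase, read 8.59 in mtYAP, 7.30 in YAP and 6.88 in control. Its difference was 1.71 (3.28-fold) in mtYAP and 0.42 (1.34-fold) in YAP, and its 3 probe sets spanned 1.43 to 1.99 in mtYAP and 0.11 to 0.71 in YAP. Rrm1, the large subunit, read 6.95 in mtYAP, 6.39 in YAP and 6.09 in control as a mean of 3 probe sets, 1 of which stayed below 3 on every array. The 2 that reached level 6 differed from control by 1.17 and 1.14 in mtYAP and by 0.51 and 0.35 in YAP. With all probe sets averaged, the difference of Rrm2 exceeded that of Rrm1 by 0.86 in mtYAP and 0.12 in YAP.

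The promoters of both reductase subunits are shown because their products work in 1 enzyme while their strings differ. The window of Rrm1, at chr7:102441445-102441744 on the plus strand of GRCm38.p6 (RefSeq), holds CCAAT at 2 places and an E2F string in the reverse orientation between them, all in capitals. The window of Rrm2, at chr12:24708004-24708303 on the plus strand, holds 1 CCAAT and no E2F string of the letters searched.
Rrm1: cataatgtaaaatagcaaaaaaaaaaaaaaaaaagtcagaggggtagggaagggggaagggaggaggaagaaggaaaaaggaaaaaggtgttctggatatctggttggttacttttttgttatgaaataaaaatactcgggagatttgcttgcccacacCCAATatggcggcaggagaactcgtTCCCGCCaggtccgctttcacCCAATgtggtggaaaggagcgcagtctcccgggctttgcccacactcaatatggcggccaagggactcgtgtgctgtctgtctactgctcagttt
Rrm2: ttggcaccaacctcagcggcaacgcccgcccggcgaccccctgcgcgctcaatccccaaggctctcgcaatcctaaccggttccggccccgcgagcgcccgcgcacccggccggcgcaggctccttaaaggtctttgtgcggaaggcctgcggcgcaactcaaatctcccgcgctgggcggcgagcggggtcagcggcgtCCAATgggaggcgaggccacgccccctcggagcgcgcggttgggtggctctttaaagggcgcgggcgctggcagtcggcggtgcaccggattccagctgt

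Dut, the dUTPase that keeps uracil out of DNA and supplies dUMP, read 7.50 in mtYAP, 7.225 in YAP and 5.695 in control. As a mean of 2 probe sets, its difference of 1.53 (2.89-fold) was the highest of the set in YAP, at rank 70 from the top among all genes, and in mtYAP it was 1.805 (3.49-fold). The probe set of Dut that reached level 6 read 9.98 in mtYAP, 9.53 in YAP and 7.60 in control. Between mtYAP and YAP, Dut differed by 0.275 as a mean and by 0.45 in this probe set, and Rrm2 by 1.29 as a mean. Dtymk, the kinase that phosphorylates dTMP, read 8.78 in mtYAP, 8.31 in YAP and 8.12 in control, and its 3 probe sets stood 0.52 to 0.90 above control in mtYAP and 0.14 to 0.28 in YAP.

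Tyms, thymidylate synthase, read 2.82 in mtYAP, 2.79 in YAP and 2.85 in control over 4 probe sets, all of them below 5, so these probe sets give no clear level. A probe set that names both Tyms and the pseudogene Tyms-ps, outside the rule, read 8.41 in mtYAP, 7.78 in YAP and 7.27 in control. Its difference was 1.14 in mtYAP and 0.51 in YAP, and how much of it belongs to Tyms itself was not tested.

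All 5 salvage enzymes stood above control in mtYAP and 4 of them in YAP. Hprt, which returns hypoxanthine and guanine to nucleotides, read 10.58 in mtYAP, 10.20 in YAP and 9.36 in control, a difference of 1.22 (2.33-fold) and 0.84 (1.79-fold). Aprt, which does the same for adenine, read 10.695 in mtYAP, 10.475 in YAP and 10.265 in control, and its differences of 0.43 and 0.21 were the lowest of the branch in mtYAP and the lowest but 1 in YAP. Both enzymes use PRPP. Dck, the deoxycytidine kinase, read 6.67 in mtYAP, 6.37 in YAP and 5.50 in control, and its 3 probe sets stood 0.66 to 1.69 above control in mtYAP and 0.57 to 1.19 above control in YAP.

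The uridine and thymidine kinases differed in how the lines compared. Uck2, a uridine-cytidine kinase, read 7.01 in mtYAP, 6.66 in YAP and 6.075 in control, and each of its 6 probe sets stood in that order. Tk1, the cytosolic thymidine kinase known for its S phase expression, read 6.79 in mtYAP, 5.85 in YAP and 6.05 in control through 1 probe set. Tk1 was the only gene of the set on opposite sides of control in the lines, at 0.74 in mtYAP and −0.20 in YAP, and the YAP level lay below 6.

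The kinases that phosphorylate nucleotides of several kinds had the lowest branch median, 0.19 in mtYAP and 0.15 in YAP. Nme1, a nucleoside diphosphate kinase, read 10.13 in mtYAP, 9.605 in YAP and 9.17 in control, with differences of 0.96 and 0.435. Nme2, its close relative and genomic neighbour, read 12.72 in mtYAP, 12.68 in YAP and 12.53 in control, so the neighbours differed by 0.77 in how far they stood above control in mtYAP. Because their sequences are much alike, signal of each could reach probe sets of the other, and this was not tested. Cmpk1, the kinase of UMP and CMP, read 7.065 in mtYAP, 6.965 in YAP and 7.37 in control, below control in both lines in each of its 2 probe sets.

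**Figure D2:**
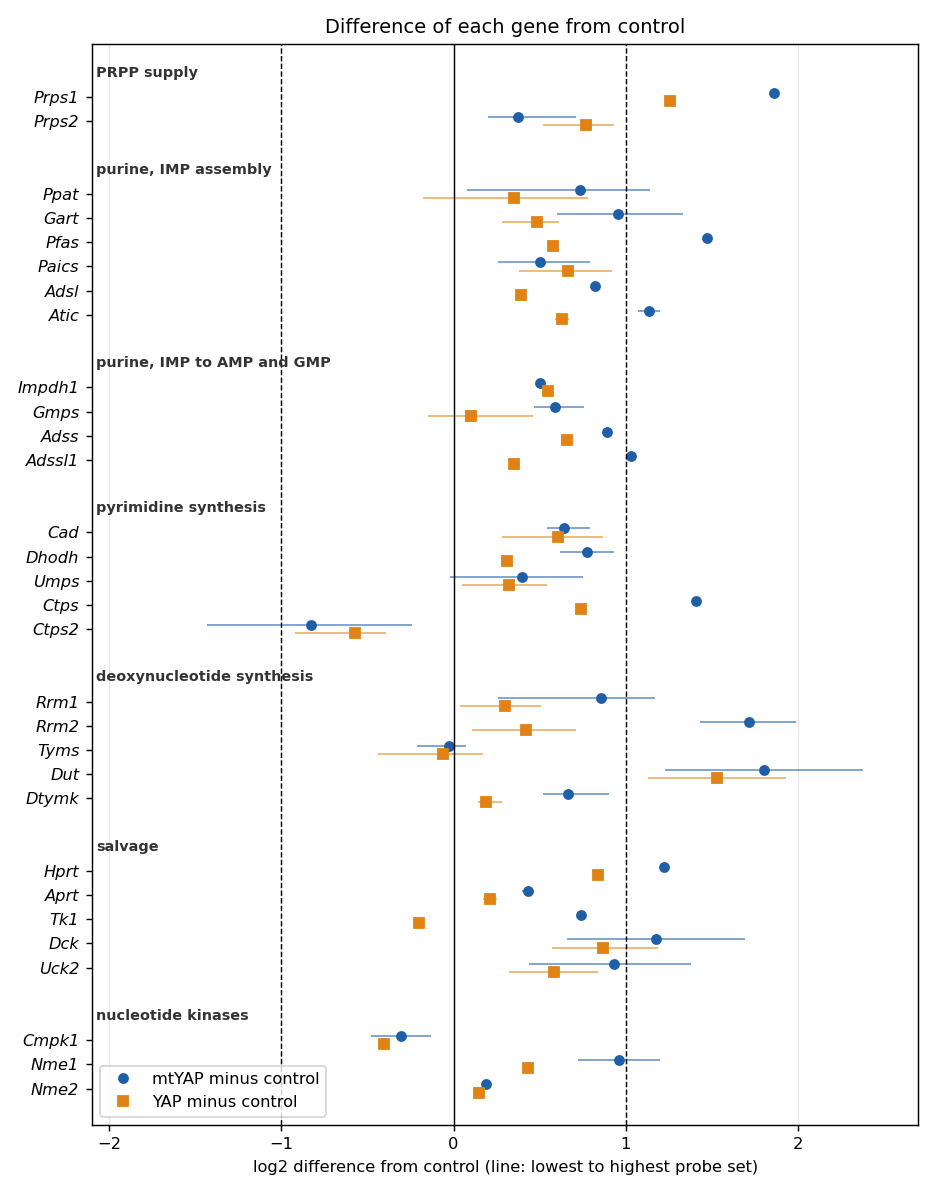
Log2 difference from control (horizontal axis) of the 30 measured genes, grouped by branch, for mtYAP (circles) and YAP (squares), where horizontal lines run from the lowest to the highest probe set of the gene and are no error between replicates. Dashed lines mark −1 and 1. The circles of 9 genes lie above 1, those of Prps1, Pfas, Atic, Adssl1, Ctps, Rrm2, Dut, Hprt and Dck, and the squares of Prps1 and Dut.

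Set against each other without the control array, the lines differed mostly toward mtYAP. Of the 30 genes, 26 read higher in mtYAP than in YAP, as did 9704 of all 18193 genes. The median difference was 0.38, where the median over all genes was 0.025. Above a difference of 0.5, which is 1.41-fold, lay 9 genes (30%), where 5.45% of all genes did. None lay below −0.5, where 6.57% of all genes did. Among genes that reached level 6, 8 of the 26 of the set (30.8%) lay above 0.5, against 8.39% of all such genes. The mean of Ctps2 was −0.26, but its probe set that reached level 6 stood at −1.02. The 9 genes were Rrm2 at 1.29, Tk1 at 0.94, Pfas at 0.89, Adssl1 at 0.68, Ctps at 0.67, Prps1 at 0.60, Rrm1 at 0.56, Nme1 at 0.525 and Atic at 0.505. Rrm2 stood at rank 51 from the top among all genes, 2.45-fold higher in mtYAP than in YAP, and its 3 probe sets lay between 1.27 and 1.32.

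Some members lay close together in the lines. Cad differed between mtYAP and YAP by 0.03, Nme2 by 0.04 and Impdh1 by −0.05, less than the 0.20 that probe sets of 1 gene typically spanned in this comparison. Umps differed by 0.08 as a mean, and by 0.32 and 0.21 in its probe sets at level 6. The probe sets of Tyms alone give no clear level, and the one shared with Tyms-ps differed by 0.63. Prps2 and Paics read higher in YAP, with differences of −0.39 and −0.17. Ctps2 and Impdh1 were the other members below 0. Of the 26 genes above control in both lines, 23 stood higher in mtYAP than in YAP. How many of all genes above control in both lines did so was not counted.

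**Figure D3:**
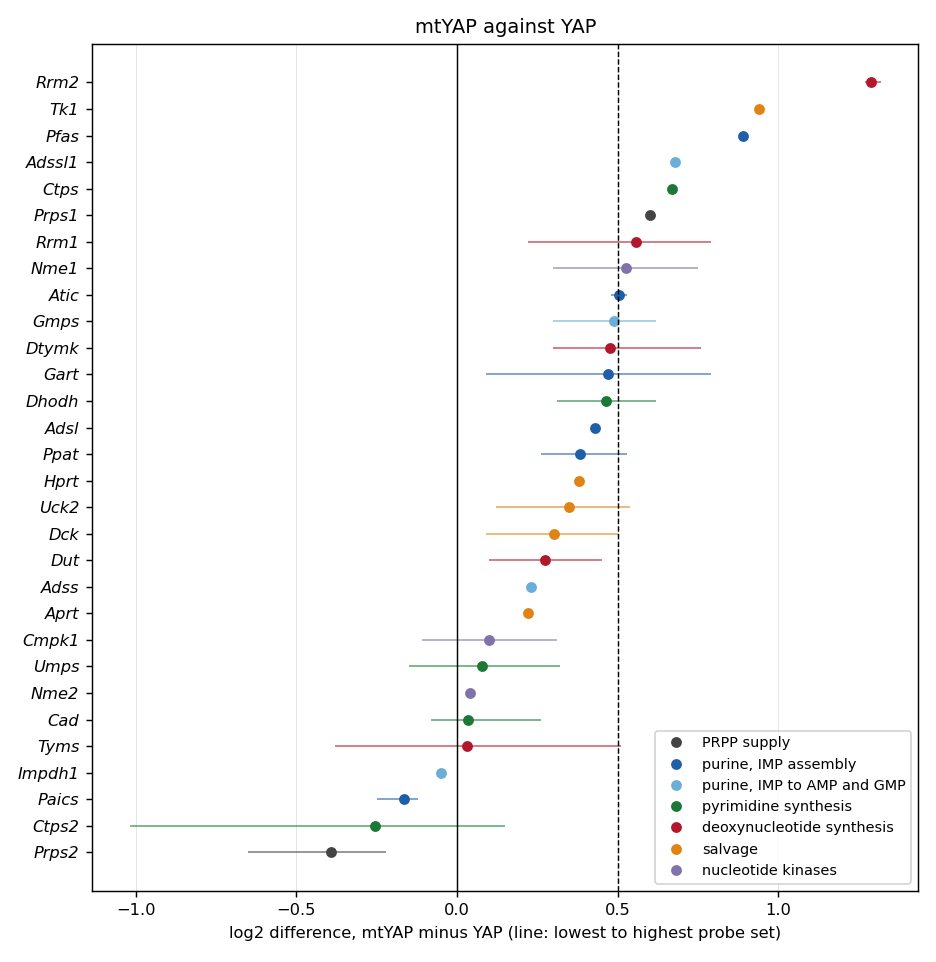
Log2 difference of mtYAP minus YAP (horizontal axis) for the 30 measured genes in order of size, coloured by branch, where lines run from the lowest to the highest probe set and are no error between replicates. The dashed line marks 0.5. Rrm2 stands furthest to the right at 1.29 and Prps2 furthest to the left at −0.39.

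Other genes of nucleotide metabolism, taken as 6 lists by function, lay on both sides of control. Of 73 listed genes 62 were measured, 9 lay above 1 and 3 below −1 in mtYAP, where 3.77% and 4.06% of all genes did, and 5 lay above 1 and none below −1 in YAP, where 1.36% and 1.26% did, at medians of 0.145 and 0.10. Breakdown enzymes lay near control, their median over 18 genes being 0.03 in mtYAP and 0.04 in YAP, and none was above 1, though only 6 of the 18 reached level 6. Xdh, xanthine oxidoreductase, which makes uric acid, read 9.70 in mtYAP, 10.49 in YAP and 10.78 in control, the only breakdown enzyme below −1 in mtYAP, at −1.08. Nucleoside transporters had no gene beyond 1 in either direction in either line, with medians of 0.24 and −0.04 over 5 genes, of which 2 reached level 6.

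Salvage enzymes and kinases outside the set stood on both sides of control in mtYAP, at a median of −0.23 over 17 genes, and at 0.04 in YAP. Ak5, an adenylate kinase isoform, read 8.535 in mtYAP, 6.955 in YAP and 6.29 in control. Dctd, which deaminates dCMP to dUMP, read 8.07 in mtYAP, 7.27 in YAP and 6.42 in control. Pnp, purine nucleoside phosphorylase, which releases the bases that Hprt salvages, read 8.59 in mtYAP, 9.66 in YAP and 10.02 in control, a difference of −1.43 in mtYAP and −0.36 in YAP. Pnp thus lay below control where Hprt lay above it.

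Among 9 measured genes that control or clean the deoxynucleotide pool, 2 lay above 1 and 1 below −1 in mtYAP. Of all genes, 3.77% and 4.06% did. In YAP, 1 of the 9 lay above 1 and none below −1, against 1.36% and 1.26% of all genes. Dnph1, a hydrolase of deoxynucleoside monophosphates, read 7.38 in mtYAP, 6.74 in YAP and 5.65 in control, and Dctpp1, a dCTP pyrophosphatase, read 7.66 in mtYAP, 7.31 in YAP and 6.56 in control. Glrx, a glutaredoxin that can reduce ribonucleotide reductase, read 6.54 in mtYAP, 7.62 in YAP and 8.33 in control.

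Folate enzymes, which supply the one-carbon units of purines and dTMP, all stood above control in both lines, with medians of 1.00 (mtYAP) and 0.415 (YAP) over 11 measured genes. Of these, 5 lay above 1 in mtYAP and 4 in YAP, against 3.77% and 1.36% of all genes. Mthfd2, a mitochondrial dehydrogenase of the folate cycle, stood at a difference of 2.325 in mtYAP and 1.515 in YAP, and Shmt2, the mitochondrial serine hydroxymethyltransferase, at 1.99 and 1.195. Aldh1l2 stood at 1.80 and 1.38 and Mthfd1l at 1.60 and 1.71, while Shmt1, the cytosolic isoform, stood at 1.12 and 0.075. As a mean of its probe sets, Shmt1 reached level 6 only in mtYAP, at 6.62, against 5.575 in YAP and 5.50 in control.

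**Figure D4:**
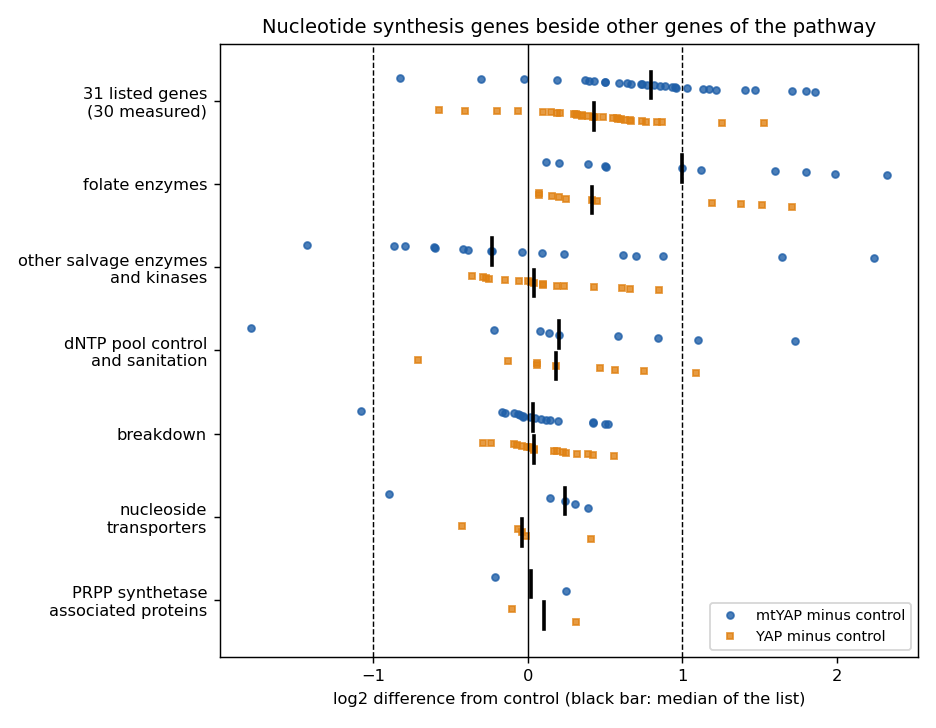
Log2 difference from control (horizontal axis) for the 30 measured nucleotide synthesis genes and for 6 other lists of nucleotide metabolism, 1 point per gene, with mtYAP as circles above YAP as squares and a black bar at each median; height within a row only separates the points. Dashed lines mark −1 and 1. The medians of the set stand at 0.80 and 0.43, and among the other lists the folate enzymes stand at 1.00 and 0.415.

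RefSeq promoter windows of 300 bases on GRCm38.p6 were given for 29 of the 31 genes, 35 windows in all, some of which overlap where a gene has several starts, and none for Dhodh and Pfas. Both strands were searched for letters that factors of growth control are known to bind. The E-box CACGTG was found in 7 of the 35 windows (20%), from Atic, Dtymk, Impdh2, Nme1, Paics and Tyms, against 7.15% of all windows and 10.7% of windows of coding genes that reached level 6. The E2F string GGCGGGA was found in 15 windows of 14 genes (42.9%), against 11.3% of all windows and 22.5% of those of coding genes at level 6. The 14 are Adsl, Adss, Aprt, Atic, Cad, Ctps2, Dut, Gart, Gmps, Nme2, Ppat, Prps1, Rrm1 and Umps. Of these, Atic, Dut and Prps1 lay above 1 in mtYAP. Umps and Nme2 stood at 0.40 and 0.19 in mtYAP, and Ctps2 stood below control. With a further A, as GGCGGGAA, the E2F string was found in Ppat, Prps1 and Rrm1 (8.57% of windows, against 2.19% and 4.10%).

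The TEAD string GGAATG was found in the window of Prps1 alone (2.86%), against 14.7% of all windows and 11.7% of those of coding genes at level 6, and it overlaps an E2F string there. CCAAT was found in 10 windows (28.6%), against 37.4% and 37.9%. Of the 9 genes above 1 in mtYAP, Hprt, Dck, Ctps and Adssl1 had none of these letters in their windows, Rrm2 had CCAAT alone, and Pfas had no window. A match of letters is a description of the window and not a binding site, and no test of binding was made.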

How the data were processed

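Gene expression was measured on 3 Affymetrix arrays, 1 each for mtYAP, YAP and control NIH3T3 cells. The deposited values are log2 levels per probe set, which the authors background-subtracted and normalized by robust multiarray analysis (RMA) in R, rounded to 2 decimals. RMA and affy are the tools in the submitters' processing notes, without versions in any source used here, and whether other arrays were normalized with these is not stated. Of 45037 probe sets, 34945 name 1 gene and were used, 932 name several and 9160 none. A gene's level is the mean of its probe sets, and differences are array minus array. Counts used a limit of 1, and 0.5 for mtYAP minus YAP, and no test was run. Precision is limited by the number of arrays.

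All 31 listed genes were named, and of the other lists up to 4 genes each that reached level 6 and lay beyond 1 in either line, by size in mtYAP, plus Shmt1, named after its value was seen to account for a count of 5. The genes and lists were chosen with earlier results of these data known. Alternatives were the gene's brightest probe set on average, the median of the probe sets, no _s, _x or _a probe sets, level 6 for each probe set, removal of the median difference or of a loess on the level (span 0.3), a limit of 1.5-fold and, chosen after seeing the data, probe sets of several genes kept. The counting was tested on simulated data. RefSeq gene and promoter tables (GRCm38.p6) gave neighbours and sequences, and all 31 symbols were found among the RefSeq genes. Python 3.11.15 with numpy 2.4.6, pandas 2.3.3, statsmodels 0.14.6 and matplotlib 3.10.9 was used.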

Additional observations from a re-analysis of the deposited data

Results flagged for a closer look

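Tk1, the S phase thymidine kinase, lay on opposite sides of control in the lines, standing 0.74 above it in mtYAP (log2) and at −0.2 in YAP. It is read by 1 probe set on 1 array per condition, its YAP level lies below 6, and the difference between the lines was not tested.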

How the results depend on the processing

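No paired analysis was possible because each condition has 1 array, and for the same reason no replicate could be left out. At a limit of 1.5-fold in place of 2-fold, 21 of the 30 genes stood above control in mtYAP, where 9.46% of all genes did, and 10 in YAP, where 4.71% did. Under the other alternatives the count above 1 lay between 8 and 12 in mtYAP and between 2 and 3 in YAP, the count above 0.5 for mtYAP minus YAP between 8 and 13, and the medians between 0.74 and 0.885 in mtYAP and between 0.38 and 0.545 in YAP. No gene past 1 changed its direction. Nearer to 0, Gmps stood at −0.15 in YAP with the median of its probe sets, and Tyms reached 0.206 in mtYAP with its shared probe set and 0.17 in YAP with the median. Ppat, Gart, Rrm1 and Uck2 passed 1 in mtYAP in some of these settings, at up to 1.14, 1.16, 1.17 and 1.38, Dck passed it in YAP at up to 1.19, and Ctps2 lay at −1.43 in mtYAP with its probe set of highest level. Branch medians moved further: the deoxynucleotide median in mtYAP reached 1.43 with probe sets at level 6 alone, where Tyms drops out, and the nucleotide kinase medians stood at −0.305 in mtYAP and −0.405 in YAP without _s, _x and _a probe sets, where only Cmpk1 is left. That last setting measured 25 of the genes, and level 6 for each probe set measured 28.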
